A study of Mus musculus with 9 samples.

Results

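Lactose is made in the Golgi of milk-secreting cells, and the genes described here serve the steps that lead to it. They were chosen by symbol, with earlier results of these data known. They are the glucose transporters Slc2a1 and Slc2a8, the hexokinases Hk1 and Hk2 and the UDP-sugar enzymes Ugp2 and Galt. The others are the Golgi UDP-galactose carrier Slc35a2 and the galactosyltransferase B4galt1. The set is 8 of the 24421 genes in the count table, and all 8 passed the filter on low counts that left 13866 genes for testing.

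The cells were HC11, a clonal line of mouse mammary epithelial cells that makes milk proteins when given lactogenic hormones. RNA of 9 libraries was sequenced, 3 in each of 3 groups, to follow the line as it differentiates, and the study's own question was about zinc. Every group was at passage 30 and had grown to confluency over 3 days in medium with 10% fetal bovine serum, 10 ng/mL epidermal growth factor and 5 µg/mL insulin. R day1 cells then spent 1 day in medium with 2% serum and 5 µg/mL insulin. D day1 cells spent 1 day in that medium plus prolactin (5 µg/mL) and hydrocortisone (1 µM). D day6 cells spent 6 days in the D medium, which was changed every 2 days. No R group of 6 days was analysed, so hormones and days in culture cannot be told apart in the comparison of D day6 with R day1. No label states that replicates came from separate cultures, and the p-values measure the spread between these libraries, which may be technical.

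Glucose enters the mammary epithelial cell through facilitative carriers of the Slc2a family, chiefly the protein of Slc2a1, and hexokinases trap it as glucose 6-phosphate. Phosphoglucomutase and Ugp2 turn that into UDP-glucose, and the Leloir pathway, to which Galt belongs, connects UDP-glucose to UDP-galactose. Slc35a2 carries UDP-galactose into the Golgi, where B4galt1 joins galactose to glucose once it is bound to alpha-lactalbumin, the product of Lalba. In the mouse gland this pathway is turned up around birth of the young, when milk secretion begins.

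The libraries held 59621562 to 73571270 gene counts, so 3 counts, the limit that a count of 0 allows, stood for 0.0408 to 0.0503 CPM (counts scaled to a common library size). Such limits cover counting error only. D day1 replicate 2 stood apart: 1456 tested genes lay 2-fold or more away from the remaining replicates of its group, against 2 to 40 genes in each of the other 8 libraries. Its deviation from D day1 replicates 1 and 3 followed exon length, with a median log2 deviation of 0.476 for genes under 2000 bases, 0.00371 for those of 2000 to under 4000 bases and -0.541 for those of 4000 bases or more. Among the 8 genes it was high for Galt (log2 deviation 0.803), Slc2a8 (0.658), Slc2a1 (0.392) and Slc35a2 (0.259), whose 2083 to 2715 bases put them in the middle class, above its median. It was low for Hk2 (-0.264) and B4galt1 (-0.156). Its deviations for Ugp2 (-0.0509) and Hk1 (-0.0279) were small. Where a call on one of the 8 genes changes without this library, both values are given.

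**Figure D1:**
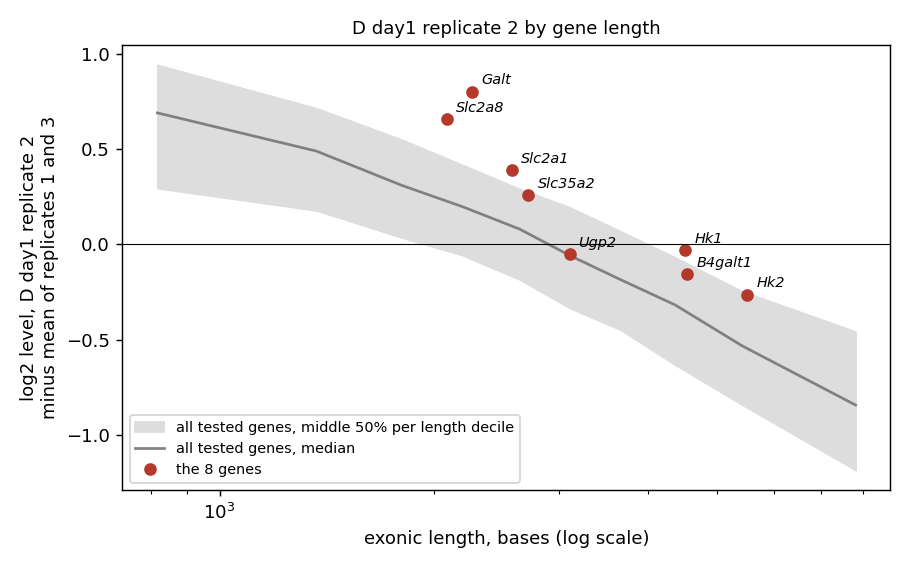
Log2 level of D day1 replicate 2 minus the mean of D day1 replicates 1 and 3 (vertical axis) against exonic length in bases (log axis), for the 8 genes (red points) and for all tested genes by length decile (line, median; band, middle 50%). The deviation falls as length rises, with Galt at 0.803 and Hk2 at -0.264.

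Luminal and basal keratins marked the cells as mammary epithelium. The 5 luminal markers summed to 1584 to 1650 CPM in R day1, 1429 to 1512 CPM in D day1 and 1939 to 2164 CPM in D day6. The 4 basal markers summed to 5249.6 to 5749 CPM in R day1, 4553 to 8630.1 CPM in D day1 and 1019 to 1131 CPM in D day6. The defining immune gene Ptprc had 5 counts over the 3 libraries of R day1, 6 over D day1 and 3 over D day6, and the adipocyte gene Adipoq had 0, 0 and 4. The 5 fibroblast markers summed to 76.0 to 87.9 CPM in R day1, 36.3 to 67.9 CPM in D day1 and 37.7 to 45.3 CPM in D day6. The immune markers summed to 24.8 to 27.3 CPM in R day1, 11.9 to 19.8 CPM in D day1 and 3.89 to 5.42 CPM in D day6. The adipocyte markers, nearly all Fabp4, summed to 25.3 to 29.6, 26.4 to 37.8 and 4.69 to 12.4 CPM in those groups, and the endothelial markers to 11.5 to 13.4, 9.15 to 11.1 and 2.11 to 2.55 CPM. The luminal keratin Krt19 was near 0, with 23, 25 and 13 counts per group. The summed levels of the basal, fibroblast, immune, adipocyte and endothelial markers were lower in D day6 than in R day1. Among the tested ones, 1 of the 4 basal markers, Acta2 (log2 change 4.05), and 1 of the 5 fibroblast markers, Lum (7.97), rose. Only 2 of the 4 immune, 1 of the 4 adipocyte and 1 of the 3 endothelial markers were tested. Of the untested ones, Kdr, Plin1 and Cd3e had 8, 0 and 1 counts in R day1 and 11, 3 and 2 in D day6. Cdh5 had 15 and 13. These marker changes moved with the D day6 results below, and their part in them was not tested. Csn2, which encodes beta-casein and is the usual sign of HC11 differentiation, averaged 1.38 ± 2.05 CPM in R day1, 1.47 ± 1.04 CPM in D day1 and 1444 ± 156 CPM in D day6 (SD, n = 3 each).

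After 1 day of D medium, Slc2a1, Hk2, Ugp2 and B4galt1 were lower than in R day1 by 1.48- to 1.86-fold. None of the 8 genes rose in that comparison, and 4 fell. Among all tested genes 15.4% were called higher and 15.2% lower in D day1 than in R day1. A gene was called where its adjusted p in edgeR's quasi-likelihood test was under 0.05. After 6 days of D medium, Hk1 was 1.94-fold higher than in R day1 while Slc2a1, Slc2a8 and B4galt1 were lower, which is 1 rise and 3 falls against 24.3% of all tested genes higher and 26.2% lower. Between D day6 and D day1, Hk1, Hk2 and Ugp2 rose and none of the 8 fell, where 17.1% of all tested genes were called higher and 19.5% lower. Groups whose libraries did not overlap are a second way to count: in D day1 against R day1, 0 of the 8 genes had every library above and 4 had every library below, where 24.2% and 25.3% of all tested genes did (49.5% either way). In D day6 against R day1, 2 lay above and 4 below, beside 39.3% and 39.4% of all tested genes (78.7% either way). For D day6 against D day1 it was 3 above and 1 below, beside 27.0% and 26.8% (53.8% either way). In whole-culture RNA, fewer cells of a type and less RNA per cell cannot be told apart.

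The median log2 change of the 8 genes was -0.50 in D day1 against R day1, where the median of all tested genes was 0.0045. It was -0.17 in D day6 against R day1, beside -0.0035 for all tested genes, and 0.0017 in D day6 against D day1, beside -0.035. Without D day1 replicate 2 the last of these medians was 0.223, beside -0.0026 for all tested genes. Both comparisons with R day1 use the same R day1 libraries, so they are not independent of each other. Without D day1 replicate 2, 0 genes rose and 5 fell in D day1 against R day1, 2 rose and 4 fell in D day6 against R day1, and 4 rose and 0 fell in D day6 against D day1. The share of all tested genes called in either direction in these comparisons was then 52.9%, 75.6% and 58.4%, against 30.6%, 50.6% and 36.6% with all libraries.

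**Figure D2:**
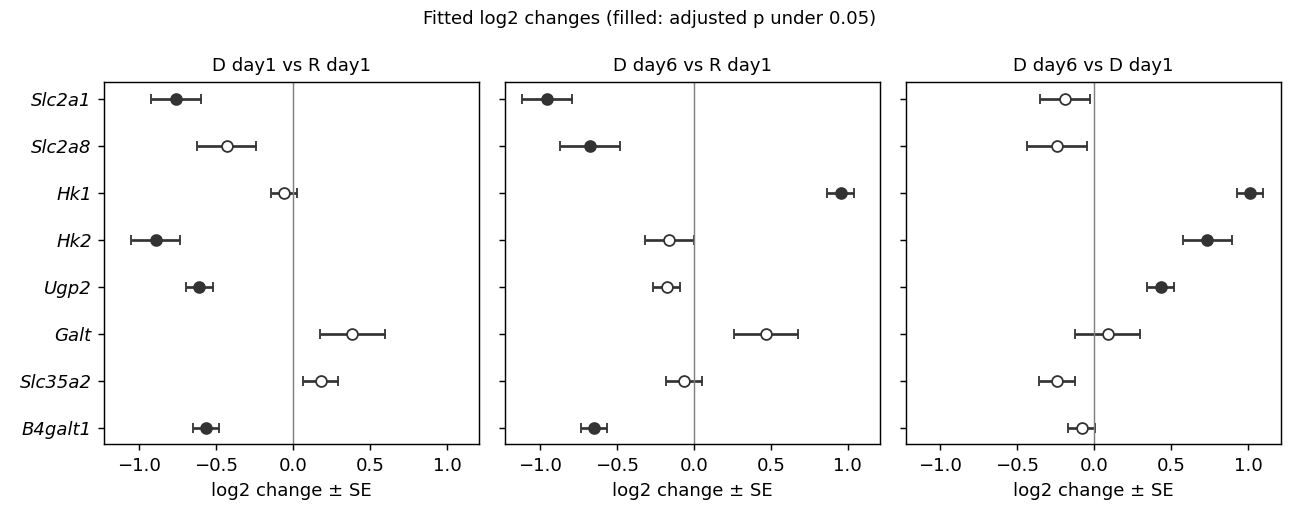
Fitted log2 changes (horizontal axis, ± SE) of the 8 genes in D day1 against R day1, D day6 against R day1 and D day6 against D day1. Filled points have an adjusted p under 0.05 in edgeR's test: 4 to the left in the first panel, 1 to the right and 3 to the left in the second, and 3 to the right in the third.

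The promoters of the 3 genes that were lower after 1 day, and whose window before the RefSeq start overlaps no counted exon (Slc2a1, Hk2 and Ugp2), are shown beside that of Hk1, which did not pass the test at day 1. Slc2a1 and Hk2 are established targets of the hypoxia-inducible factors, and the capitals mark the core letters of their response element, ACGTG or GCGTG, on either strand. Each line gives the 250 bases before an annotated start, 5′ to 3′ on the gene's strand, in RefSeq's GRCm38.p6 (mm10). They lie at chr4:119108495-119108744 (+) for Slc2a1, chr6:82774455-82774704 (-) for Hk2, chr11:21371268-21371517 (-) for Ugp2 and chr10:62379909-62380158 (-) for Hk1.
Slc2a1: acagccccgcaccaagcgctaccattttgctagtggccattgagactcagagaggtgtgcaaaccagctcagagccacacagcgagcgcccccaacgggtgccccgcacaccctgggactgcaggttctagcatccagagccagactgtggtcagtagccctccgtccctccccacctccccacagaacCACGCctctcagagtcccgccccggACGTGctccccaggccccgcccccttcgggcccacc
Hk2: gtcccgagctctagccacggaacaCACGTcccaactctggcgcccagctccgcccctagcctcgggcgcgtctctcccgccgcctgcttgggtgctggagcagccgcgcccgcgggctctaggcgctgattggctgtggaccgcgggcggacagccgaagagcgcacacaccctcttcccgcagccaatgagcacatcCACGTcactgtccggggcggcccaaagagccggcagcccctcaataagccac
Ugp2: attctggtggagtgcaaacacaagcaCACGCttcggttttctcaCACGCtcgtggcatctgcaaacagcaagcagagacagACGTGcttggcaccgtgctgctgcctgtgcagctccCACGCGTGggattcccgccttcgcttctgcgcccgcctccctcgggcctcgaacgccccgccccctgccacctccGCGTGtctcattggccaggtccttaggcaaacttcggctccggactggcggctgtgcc
Hk1: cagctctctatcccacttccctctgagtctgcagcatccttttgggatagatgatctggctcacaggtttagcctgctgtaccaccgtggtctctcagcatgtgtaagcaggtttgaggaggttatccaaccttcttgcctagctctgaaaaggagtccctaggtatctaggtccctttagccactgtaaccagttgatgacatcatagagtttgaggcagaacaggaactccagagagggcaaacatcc
Slc2a1 has GCGTG at position -61 on the opposite strand and ACGTG at -36, counted back from the start. Hk2 has ACGTG at -226 and -52, both on the opposite strand. Ugp2 has 1 ACGTG and 5 GCGTG, of which the pair at -133 and -130 overlaps on opposite strands. The printed Hk1 window holds neither, while the window before the second annotated Hk1 start, which shares 65 bases with counted exons and is not printed, has GCGTG at -196, -15 and -12. The window before the second Ugp2 start holds neither.

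All 8 genes matched the RefSeq promoter table, with 11 windows in all because Hk1, Ugp2 and Galt each have a second annotated start. ACGTG or GCGTG stood in 7 of the 11 windows and in 38.6% of 32851 promoters of the same length. They stood also in windows of genes not called in D day1 against R day1, Slc2a8 (GCGTG at -173) and Galt (ACGTG at -42 and -41, GCGTG at -93). The Galt matches at -42 and -41 are 1 CACGTG read on both strands. That Galt window lies wholly within counted exons. B4galt1, lower in D day1, had GCGTG at -47, and Slc35a2, not called, had neither. A link between these letters and the changes was not tested. The GC content of the 3 printed windows that hold either was 64.0% to 69.6%, where the median of all promoters was 52.4%. TTCNNNGAA, the letters bound by STAT factors such as the Stat5 of prolactin signalling, stood in 1 of the 11 windows, that of B4galt1 at -99, and in 7.02% of all promoters. These are letter matches on both strands, with no binding measured.

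Levels per exon length set the 8 genes in order. In R day1, B4galt1 (84.6 ± 2.29 CPM per kb) and Hk1 (80.0 ± 4.03 CPM per kb) were highest, with overlapping libraries. Ugp2 (68.8 ± 5.70 CPM per kb) and Slc2a1 (67.4 ± 12.7 CPM per kb) followed and also overlapped each other. Slc2a1 overlapped Hk1 as well, with 78.5 CPM per kb in R day1 replicate 3 against 75.7 for Hk1 in R day1 replicate 2. Hk2 had 17.7 ± 3.37 CPM per kb and Slc35a2 10.1 ± 0.992 CPM per kb, and Galt (5.78 ± 0.369 CPM per kb) and Slc2a8 (5.26 ± 0.489 CPM per kb) were lowest and overlapped. In D day1 the order of the means was Hk1 (76.8 CPM per kb), B4galt1 (57.2), Ugp2 (45.1), Slc2a1 (39.8), Slc35a2 (11.4), Hk2 (9.53), Galt (7.57) and Slc2a8 (3.91), where Ugp2 and Slc2a1 overlapped and so did Slc35a2, Hk2 and Galt. In D day6, Hk1 stood alone at the top with 155 ± 7.07 CPM per kb, and Ugp2 (60.9 ± 2.20 CPM per kb) lay above B4galt1 (54.0 ± 3.10 CPM per kb) with no overlap. Slc2a1 was then at 34.8 ± 2.24 CPM per kb, Hk2 at 15.9 ± 1.82, Slc35a2 at 9.63 ± 0.706, Galt at 8.02 ± 0.158 and Slc2a8 at 3.29 ± 0.252 CPM per kb (SD, n = 3), with no overlap between neighbours.

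**Figure D3:**
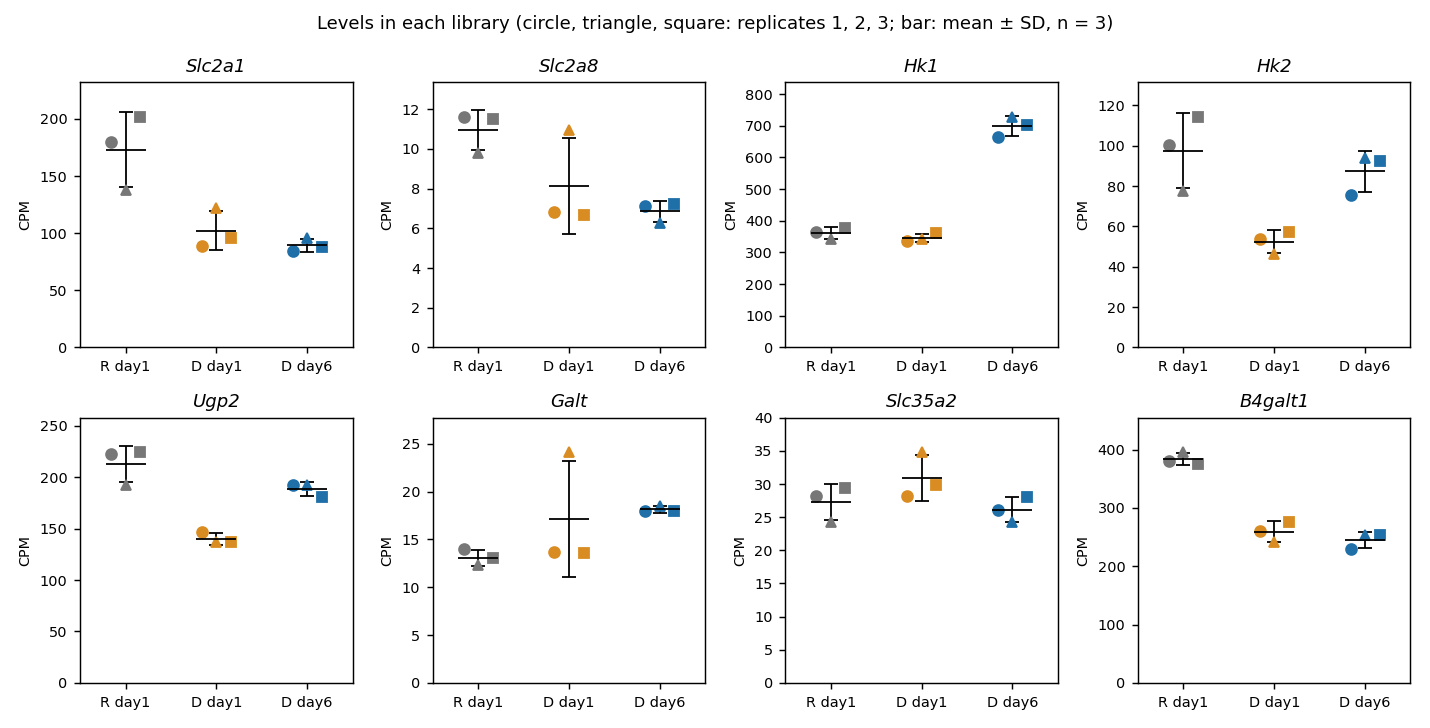
Level of each of the 8 genes in CPM (vertical axis, from 0) in each library of R day1, D day1 and D day6. Circles, triangles and squares are replicates 1, 2 and 3, and bars are the mean ± SD (n = 3); the 3 D day6 libraries of Hk1 lie at 665 to 728 CPM, above the other 6, and the triangle of D day1 stands apart for Slc2a8 and Galt.

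Slc2a1 (chromosome 4, 119108745 to 119137329, + strand) encodes GLUT1, the plasma membrane glucose carrier. It had 180.3, 138 and 202 CPM in R day1, 89.2, 122 and 96.0 CPM in D day1, and 84.6, 95.9 and 88.1 CPM in D day6. Every D library lay below every R library, while the D groups overlapped each other. Slc2a1 was 1.69-fold lower in D day1 than in R day1 (log2 change -0.76, SE 0.162, edgeR adjusted p = 0.00813). In D day6 it was 1.94-fold lower than in R day1 (log2 change -0.95, SE 0.163, edgeR adjusted p = 0.00117). Its log2 change in D day6 against D day1 was -0.19 (SE 0.161, edgeR adjusted p = 0.374).

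Slc2a8 (chromosome 2, 32972989 to 32982056, - strand) encodes GLUT8, a carrier held mostly on intracellular membranes. It had 11.6, 9.78 and 11.5 CPM in R day1, 6.82, 10.9 and 6.66 CPM in D day1, and 7.12, 6.26 and 7.20 CPM in D day6. D day6 lay below R day1 throughout, and D day1 overlapped R day1 through replicate 2. The fall in D day6 against R day1 was 1.60-fold (log2 change -0.68, SE 0.193, edgeR adjusted p = 0.0171). Leaving out R day1 replicate 1, R day1 replicate 3 or D day6 replicate 2 ended that call (edgeR adjusted p = 0.0554, 0.0546 and 0.0663). In D day1 against R day1 its log2 change was -0.43 (SE 0.192, edgeR adjusted p = 0.122), and without D day1 replicate 2 it was -0.70 (edgeR adjusted p = 0.000244). Its log2 change in D day6 against D day1 was -0.24 (SE 0.193, edgeR adjusted p = 0.347), and 0.03 without D day1 replicate 2 (edgeR adjusted p = 0.830).

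Slc2a1 made up most of its family's RNA per length. It held 89.7 ± 1.14% of the summed CPM per kb of the Slc2a genes in R day1, 86.0 ± 1.08% in D day1 and 85.6 ± 2.13% in D day6, while the family sum was 75.0 ± 13.2, 46.3 ± 8.10 and 40.6 ± 1.60 CPM per kb in those groups. Of the 16 Slc2a and sodium-coupled Slc5a genes listed, 8 passed the low-count filter. The insulin-responsive carrier Slc2a4 averaged 3.42 ± 0.225 CPM in R day1, 5.50 ± 1.04 CPM in D day1 and 4.19 ± 0.618 CPM in D day6. The neuronal carrier Slc2a3 had 8, 2 and 1 counts in all over R day1, D day1 and D day6, and the liver carrier Slc2a2 had 1, 0 and 1.

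Against the falls of Slc2a1 and Slc2a8, some carriers rose. In D day1 against R day1, 3 of the 8 tested carriers rose and 3 fell: Slc5a1 (log2 change 1.79), Slc2a4 (0.68) and Slc5a9 (0.66) were higher, and Slc2a9 (-1.85), Slc5a10 (-1.84) and Slc2a1 were lower. In D day6 against R day1, 3 rose and 4 fell, with Slc5a1 (3.19), Slc2a6 (2.01) and Slc5a9 (0.95) higher and Slc5a10 (-4.12) and Slc2a9 (-1.93) the largest falls. In D day6 against D day1, Slc5a1 (1.40) and Slc5a9 (0.28) rose and Slc5a10 (-2.28) fell. Slc5a1, which encodes the intestinal sodium-glucose cotransporter, still averaged only 3.66 ± 0.207 CPM in D day6, against 0.399 ± 0.0493 CPM in R day1. Slc5a9 was the more abundant of the carriers that rose in every comparison, at 32.8 ± 1.67 CPM in R day1, 52.0 ± 5.53 CPM in D day1 and 63.4 ± 2.76 CPM in D day6. Slc5a10 had 155 counts in R day1, 42 in D day1 and 8 in D day6 over 3 libraries, and its exons share 393 bases with Fam83g on the opposite strand. The D day6 against D day1 calls of Slc5a9 and Slc5a10 were lost under 11 and 5 of 16 alternative settings, and those of Slc2a4 and Slc5a10 in D day1 against R day1 under 2 and 1. Without D day1 replicate 2 the counts of carriers were 3 higher and 4 lower, 4 higher and 4 lower, and 3 higher and 1 lower. Of all tested genes, 52.9%, 75.6% and 58.4% were then called either way, against 30.6%, 50.6% and 36.6% with all libraries.

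Among the hexokinase genes, Hk1 rose at day 6 and Hk2 fell at day 1 relative to R day1. Hk1 (chromosome 10, 62268855 to 62379908, - strand) encodes the widely expressed, mitochondria-bound hexokinase. It had 363, 342 and 378 CPM in R day1, 336, 342 and 360.5 CPM in D day1, and 665, 728 and 704 CPM in D day6. The D day6 libraries lay far above all others, and D day1 and R day1 overlapped. Hk1 was 1.94-fold higher in D day6 than in R day1 (log2 change 0.95, SE 0.0848, edgeR adjusted p = 2.59e-05) and 2.02-fold higher than in D day1 (log2 change 1.01, SE 0.0849, edgeR adjusted p = 4.62e-05). In D day1 against R day1 its log2 change was -0.06 (SE 0.0841, edgeR adjusted p = 0.619). Both annotated Hk1 starts feed 1 gene count, so their transcripts were not told apart.

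Hk2 (chromosome 6, 82725027 to 82774454, - strand) encodes the hexokinase of insulin-responsive and growing tissue. It had 101, 77.5 and 114 CPM in R day1, 53.9, 46.3 and 57.4 CPM in D day1, and 75.8, 93.9 and 92.4 CPM in D day6. D day1 lay below both other groups, which overlapped each other. Hk2 was 1.86-fold lower in D day1 than in R day1 (log2 change -0.89, SE 0.158, edgeR adjusted p = 0.00337). It was 1.66-fold higher in D day6 than in D day1 (log2 change 0.73, SE 0.158, edgeR adjusted p = 0.00701). Its log2 change in D day6 against R day1 was -0.16 (SE 0.157, edgeR adjusted p = 0.440).

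Hk1 held 82.0 ± 2.13% of the summed CPM per kb of Hk1, Hk2, Hk3 and Hkdc1 in R day1, 89.0 ± 0.922% in D day1 and 90.7 ± 0.638% in D day6. Per length, Hk1 exceeded Hk2 by 4.04- to 5.38-fold in the R day1 libraries, 7.63- to 9.03-fold in D day1 and 9.31- to 10.7-fold in D day6, so no R library overlapped a D library. Hk3 and Hkdc1 did not pass the filter, with 3 to 6 counts over the 3 libraries of any group. Adpgk, whose product phosphorylates glucose with ADP, averaged 25.1 ± 0.520 CPM in R day1, 42.0 ± 0.0932 CPM in D day1 and 60.6 ± 2.02 CPM in D day6. It rose in D day1 against R day1 (log2 change 0.74), in D day6 against R day1 (1.27) and in D day6 against D day1 (0.53). Of the 3 tested genes whose products phosphorylate glucose (Hk1, Hk2 and Adpgk), 1 rose and 1 fell in D day1 against R day1. In D day6 against R day1, 2 rose and 0 fell. Adpgk is 1 of the genes that rose in each. All 3 rose in D day6 against D day1. The shares of all tested genes called either way were 30.6%, 50.6% and 36.6% in these comparisons.

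**Figure D4:**
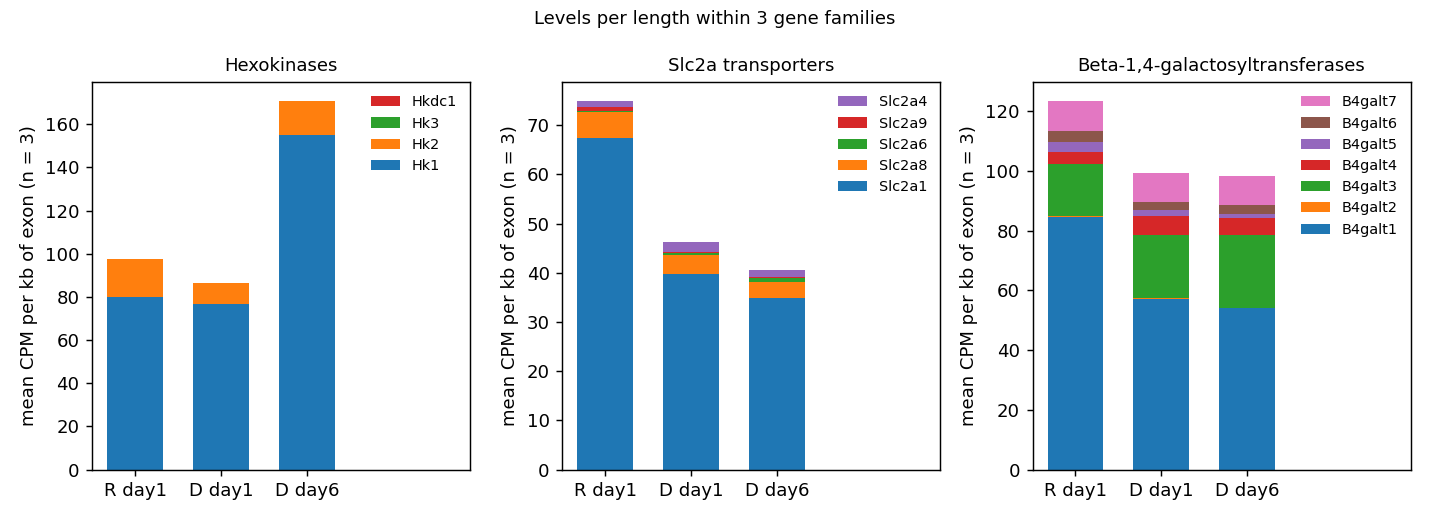
Mean CPM per kb of exon (vertical axis, n = 3) for R day1, D day1 and D day6, stacked by gene for the hexokinases Hk1, Hk2, Hk3 and Hkdc1, the Slc2a transporters that passed the filter and the beta-1,4-galactosyltransferases. Hk1 supplies most of the hexokinase sum and reaches 155 CPM per kb in D day6, while the Slc2a1 and B4galt1 blocks are smaller in both D groups than in R day1.

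Ugp2 (chromosome 11, 21321126 to 21371267, - strand) encodes the pyrophosphorylase that makes UDP-glucose. It had 222, 193 and 224 CPM in R day1, 146, 137 and 137 CPM in D day1, and 193, 192 and 181 CPM in D day6. D day1 lay below both other groups, and the highest D day6 library reached the rounded level of the lowest R day1 library. Ugp2 was 1.52-fold lower in D day1 than in R day1 (log2 change -0.61, SE 0.0875, edgeR adjusted p = 0.00122). It was 1.35-fold higher in D day6 than in D day1 (log2 change 0.43, SE 0.0874, edgeR adjusted p = 0.00521). Against R day1, D day6 had a log2 change of -0.18 (SE 0.0872, edgeR adjusted p = 0.124). That difference passed the edgeR test without D day1 replicate 2 (adjusted p = 0.0274), with only the 6 libraries compared (0.0257) and with library totals as the scale (0.0231), so its call rests on the setting. Its exons share 16 bases with Vps54 on the opposite strand.

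Galt (chromosome 4, 41755228 to 41759224, + strand) encodes the uridylyltransferase that exchanges galactose and glucose between their UDP and phosphate forms. It had 13.9, 12.3 and 13.0 CPM in R day1, 13.6, 24.1 and 13.6 CPM in D day1, and 17.9, 18.5 and 17.9 CPM in D day6. D day6 lay above every R day1 library, and D day1 replicate 2 alone lay above D day6. Against R day1 its log2 change in D day6 was 0.47 (SE 0.209, edgeR adjusted p = 0.0906). Without D day1 replicate 2 it was 0.48 (SE 0.0623, edgeR adjusted p = 3.94e-05), and with only the 6 libraries compared the edgeR adjusted p was 9.4e-05. Against D day1 its log2 change in D day6 was 0.09 (edgeR adjusted p = 0.767), and without D day1 replicate 2 it was 0.42 (edgeR adjusted p = 0.00048). In D day1 against R day1 it was 0.39 (SE 0.209, edgeR adjusted p = 0.192), and 0.06 without that library (edgeR adjusted p = 0.506).

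Galt stood far below Ugp2 per length, at 0.0795 to 0.0873 of its level in R day1, 0.128 to 0.242 in D day1 and 0.128 to 0.136 in D day6. The 0.242 was that of D day1 replicate 2, while D day1 replicates 1 and 3 had 0.128 and 0.136. Galk1, the galactokinase gene, averaged 130.3 ± 27.4 CPM in R day1, 101 ± 40.0 CPM in D day1 and 70.1 ± 3.96 CPM in D day6. It fell in D day6 against R day1 (log2 change -0.89, edgeR adjusted p = 0.0178, lost under 2 of 16 alternatives), and its exons share 110 bases with Itgb4 on the opposite strand. Its log2 change was -0.36 in D day1 against R day1 and -0.53 in D day6 against D day1 (edgeR adjusted p = 0.310 and 0.137). Galk1 also fell in D day1 against R day1 without D day1 replicate 2 (log2 change -0.73, edgeR adjusted p = 0.00144).

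The genes under the phosphoglucomutase symbols Pgm1 and Pgm2 differed from each other. Which of them serves the step between hexokinase and Ugp2 was not tested. Pgm1 averaged 55.1 ± 1.17 CPM in R day1, 37.9 ± 5.63 CPM in D day1 and 54.7 ± 2.12 CPM in D day6, lowest at D day1 as were Hk2 and Ugp2. It fell in D day1 against R day1 (log2 change -0.54, edgeR adjusted p = 0.00652) and rose in D day6 against D day1 (0.53, edgeR adjusted p = 0.00592), with a log2 change of -0.01 in D day6 against R day1. Pgm2 averaged 118 ± 16.3 CPM in R day1, 67.5 ± 11.2 CPM in D day1 and 54.8 ± 2.80 CPM in D day6. It was lower than in R day1 in D day1 (log2 change -0.81, edgeR adjusted p = 0.00312) and in D day6 (-1.11, edgeR adjusted p = 0.000211), and its log2 change between D day6 and D day1 was -0.30 (edgeR adjusted p = 0.125).

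All 13 galactose and UDP-sugar enzymes described were tested. In D day1 against R day1, 1 rose, the UDP-xylose synthase Uxs1 (log2 change 0.46), and 6 fell, with Pgm2l1 (-1.54), Pgm2 and the galactose mutarotase Galm (-0.62) changing most. In D day6 against R day1, 3 rose (Pgm3 0.93, Uxs1 0.76 and Galm 0.53) and 4 fell, led by Pgm2, Galk1 and Pgm2l1 (-0.85). In D day6 against D day1, 5 rose, led by Galm (1.15), Pgm3 (0.82) and Pgm1, and 1 fell, Uap1l1 (-0.80). Leaving out D day1 replicate 2 made these counts 3 higher and 7 lower, 4 higher and 6 lower, and 7 higher and 1 lower. Beside them, 30.6%, 50.6% and 36.6% of all tested genes were called either way, and 52.9%, 75.6% and 58.4% without that library. The exons of Pgm3 share 1388 bases with Dopey1 on the opposite strand. The D day6 fall of Pgm2l1 against R day1 and that of Uap1l1 against D day1 were lost under 5 and 3 of 16 alternatives.

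Slc35a2 (chromosome X, 7884244 to 7894492, + strand) encodes the carrier that brings UDP-galactose into the Golgi. It had 28.2, 24.3 and 29.5 CPM in R day1, 28.2, 34.8 and 29.8 CPM in D day1, and 26.0, 24.3 and 28.1 CPM in D day6. R day1 overlapped both D groups, and D day6 lay just below D day1. Slc35a2 passed the test in none of the 3 comparisons with edgeR: its log2 change was 0.18 in D day1 against R day1 (SE 0.115, adjusted p = 0.269), -0.06 in D day6 against R day1 (SE 0.115, adjusted p = 0.684) and -0.24 in D day6 against D day1 (SE 0.115, adjusted p = 0.133). With library totals as the scale, D day6 was lower than D day1 (log2 change -0.31, edgeR adjusted p = 0.0431), a scaling under which the median of all genes was -0.107, against -0.035 with TMM scaling.

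Among the 13 nucleotide sugar carriers of the Slc35a to Slc35d groups that were tested, 4 rose and 0 fell in D day1 against R day1, 8 rose and 1 fell in D day6 against R day1, and 3 rose and 1 fell in D day6 against D day1. Slc35b1, which encodes the ATP carrier of the endoplasmic reticulum, rose most in both comparisons with R day1 (log2 change 1.47 in D day1 and 1.40 in D day6). Slc35d1 was also higher in D day1 (0.92) and D day6 (0.95) than in R day1, as were Slc35a4 in D day1 (0.46) and Slc35a5 in D day6 (0.62). Slc35d2 fell in D day6 against R day1 (-0.64) and against D day1 (-0.51), while Slc35a3 (1.02), Slc35a5 (0.79) and the CMP-sialic acid carrier Slc35a1 (0.40) rose in D day6 against D day1. The counts were 6 and 0, 10 and 1, and 6 and 1 without D day1 replicate 2. Called either way were 30.6%, 50.6% and 36.6% of all tested genes, and 52.9%, 75.6% and 58.4% without that library. Calls of Slc35d1 in D day1 and of Slc35a5 in D day6 against R day1 were lost under 6 and 7 of 16 alternatives. The D day6 against D day1 calls of Slc35a3, Slc35a5 and Slc35a1 were lost under 8, 4 and 3, and that of Slc35a4 in D day1, whose exons share 152 bases with Apbb3 on the opposite strand, under 1.

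B4galt1 (chromosome 4, 40804582 to 40854537, - strand) encodes the galactosyltransferase that is the catalytic part of lactose synthase and that also galactosylates glycoproteins in other tissues. It had 380.4, 396 and 376 CPM in R day1, 261, 241 and 276 CPM in D day1, and 229, 253 and 253 CPM in D day6. All D libraries lay below all R libraries, and the D groups overlapped. B4galt1 was 1.48-fold lower in D day1 than in R day1 (log2 change -0.57, SE 0.0870, edgeR adjusted p = 0.00167). It was 1.57-fold lower in D day6 than in R day1 (log2 change -0.65, SE 0.0870, edgeR adjusted p = 0.000284). D day6 against D day1 had a log2 change of -0.08 (SE 0.0867, edgeR adjusted p = 0.480). The mouse gene is known to be transcribed from more than 1 start, with a start nearer the coding region used in the lactating gland. The window before its RefSeq start lies wholly in its first counted exon, so the gene count does not tell the starts apart.

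Lalba, whose product turns B4galt1 to lactose synthesis, had 0 counts in R day1, 1 in D day1 and 1 in D day6 over the 3 libraries of each group. It did not pass the filter, and no change was detectable at this depth. In the same D day6 libraries Csn2 was far above R day1 (log2 change 10.01, SE 1.28, edgeR adjusted p = 0.000208) and D day1 (9.92, SE 1.27, edgeR adjusted p = 0.000459). The log2 change of Csn2 in D day1 against R day1 was 0.09 (edgeR adjusted p = 0.952). Without R day1 replicate 2 it was 2.88 (edgeR adjusted p = 0.0308), the only alternative under which it passed. The near-equal means of Csn2 in R day1 and D day1 thus rest on that library.

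B4galt1 held 68.6 ± 0.520% of the summed CPM per kb of B4galt1 to B4galt7 in R day1, 57.7 ± 4.82% in D day1 and 55.0 ± 1.53% in D day6. The family sum was 123 ± 2.56, 99.2 ± 2.54 and 98.2 ± 2.97 CPM per kb in those groups. B4galt3 came next, with 17.6 CPM per kb in R day1, 21.1 in D day1 and 24.4 in D day6 (means, n = 3). Of the 7 transferases tested, 1 rose and 3 fell in D day1 against R day1, 2 rose and 2 fell in D day6 against R day1, and 0 rose and 1 fell in D day6 against D day1. B4galt4 was higher than in R day1 in D day1 (log2 change 0.77) and D day6 (0.57), and B4galt3 in D day6 (0.47). B4galt5 was lower than in R day1 in D day1 (-0.69) and D day6 (-1.22) and lower in D day6 than in D day1 (-0.53), and B4galt6 was lower in D day1 than in R day1 (-0.60). The rise of B4galt3 and the later fall of B4galt5 were lost under 7 and 3 of 16 alternatives. The D day6 counts were 2 higher and 4 lower against R day1, and 2 higher and 1 lower against D day1, without D day1 replicate 2. All tested genes had 30.6%, 50.6% and 36.6% called either way in the 3 comparisons, and 52.9%, 75.6% and 58.4% without that library.

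B4galt1 needs manganese, which reaches the Golgi through the pumps of Atp2c1 and Atp2c2 and the transporter Tmem165. Atp2c2 averaged 77.8 ± 0.280 CPM in R day1, 30.4 ± 1.05 CPM in D day1 and 21.4 ± 1.57 CPM in D day6. It was 2.56-fold lower in D day1 (log2 change -1.36, edgeR adjusted p = 2.16e-05) and 3.63-fold lower in D day6 (-1.86, edgeR adjusted p = 6.07e-07) than in R day1, and fell again in D day6 against D day1 (-0.50, edgeR adjusted p = 0.00152). Tmem165 rose in D day1 against R day1 (log2 change 0.36), so of these 3 genes 1 rose and 1 fell there, and 1 fell in each other comparison. Counts without D day1 replicate 2 were 1 higher and 2 lower in each comparison with R day1, and 2 lower in D day6 against D day1. Either way, 30.6%, 50.6% and 36.6% of all tested genes were called in the 3 comparisons, and 52.9%, 75.6% and 58.4% without that library.

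Genes of glycogen synthesis and of other UDP-glucose use changed in both directions. Of 6 such genes, 0 rose and 4 fell in D day1 against R day1, 1 rose and 3 fell in D day6 against R day1, and 3 rose and 1 fell in D day6 against D day1. Gys1, the glycogen synthase gene, averaged 225 ± 34.1 CPM in R day1, 118 ± 6.38 CPM in D day1 and 64.6 ± 3.51 CPM in D day6, and fell in each comparison (log2 change -0.93 in D day1 and -1.80 in D day6 against R day1, and -0.87 in D day6 against D day1). The branching enzyme Gbe1, which acts on the glycogen chain and uses no UDP-glucose itself, fell in D day1 against R day1 (-0.84) and rose in D day6 against D day1 (0.70). Glycogenin, Gyg (-0.72), and the glucosylceramide synthase Ugcg (-0.66) fell in D day6 against R day1. The glycoprotein glucosyltransferase Uggt1 rose in D day6 against R day1 (1.08) and D day1 (0.74). Uggt2 fell in D day1 against R day1 (-0.96) and rose in D day6 against D day1 (0.84), calls lost under 8 and 10 of 16 alternatives. Dropping D day1 replicate 2 gave D day1 counts of 1 higher and 4 lower, and 3 higher and 2 lower in D day6 against D day1. For all tested genes the called shares were 30.6%, 50.6% and 36.6% in the 3 comparisons, and 52.9%, 75.6% and 58.4% without that library.

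Txnip encodes the arrestin-like protein that removes GLUT1 from the cell surface. It averaged 300.0 ± 11.7 CPM in R day1, 238 ± 23.3 CPM in D day1 and 446 ± 46.9 CPM in D day6. It was higher in D day6 than in R day1 (log2 change 0.57, edgeR adjusted p = 0.00219) and than in D day1 (0.91, edgeR adjusted p = 0.000339). It was lower in D day1 than in R day1 (-0.34, edgeR adjusted p = 0.0459), a call lost under 9 of 16 alternatives, and its exons share 606 bases with Gm15441 on the opposite strand. Its relative Arrdc4 rose in D day1 (0.46, lost under 3 of 16 alternatives) and D day6 (1.72) against R day1 and in D day6 against D day1 (1.27).

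Of the 9 glucose uptake regulators listed, 2 rose and 1 fell in D day1 against R day1, 4 rose and 1 fell in D day6 against R day1, and 5 rose and 0 fell in D day6 against D day1. Tbc1d4, a brake on the movement of GLUT4 to the surface, averaged 60.6 ± 3.90 CPM in R day1, 85.9 ± 25.6 CPM in D day1 and 257 ± 4.42 CPM in D day6, and rose in D day6 against R day1 (log2 change 2.08) and D day1 (1.58). Mlx, a partner of the glucose-sensing factors of this list, rose in D day1 (0.34, lost under 2 of 16 alternatives) and D day6 (0.76) against R day1. Mlxipl fell in D day6 against R day1 (-2.54) with only 13 counts in D day6 and 83 in R day1 over 3 libraries. Without D day1 replicate 2 the counts were 4 higher and 2 lower, 7 higher and 2 lower, and 5 higher and 1 lower. These counts stand beside 30.6%, 50.6% and 36.6% of all tested genes called either way, and 52.9%, 75.6% and 58.4% without that library.

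Most glycolytic enzymes after the hexokinase step were lower in D day6 than in R day1. Of 13 listed, 0 rose and 4 fell in D day1 against R day1, 0 rose and 11 fell in D day6 against R day1, and 0 rose and 3 fell in D day6 against D day1. Gapdh was lower than in R day1 in D day1 (log2 change -0.69) and in D day6 (-1.15), and Pfkp (-0.63) and Aldoc (-0.62) in D day1. In D day6, Aldoc (-1.62) and Pkm (-0.99) were also among the largest falls against R day1, and Aldoc (-1.0), Pgk1 (-0.73) and Pfkm (-0.40) fell against D day1. Without D day1 replicate 2, 11 of the 13 fell in D day1 against R day1, and 2 rose and 3 fell in D day6 against D day1. The called shares of all tested genes were 30.6%, 50.6% and 36.6% in the 3 comparisons, and 52.9%, 75.6% and 58.4% without that library. The D day1 calls of Gapdh and Aldoc were lost under 10 and 5 of 16 alternatives, and the D day6 against D day1 call of Pfkm under 5. Pfkp shares 276 exon bases with Pitrm1 on the opposite strand. Eno1 shares 1649 exon bases with Eno1b on the same strand, so its count, which averaged 6.54 CPM in R day1, is uncertain. The median log2 change of this list was -0.86 in D day6 against R day1, beside the -0.0035 of all tested genes.

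**Figure D5:**
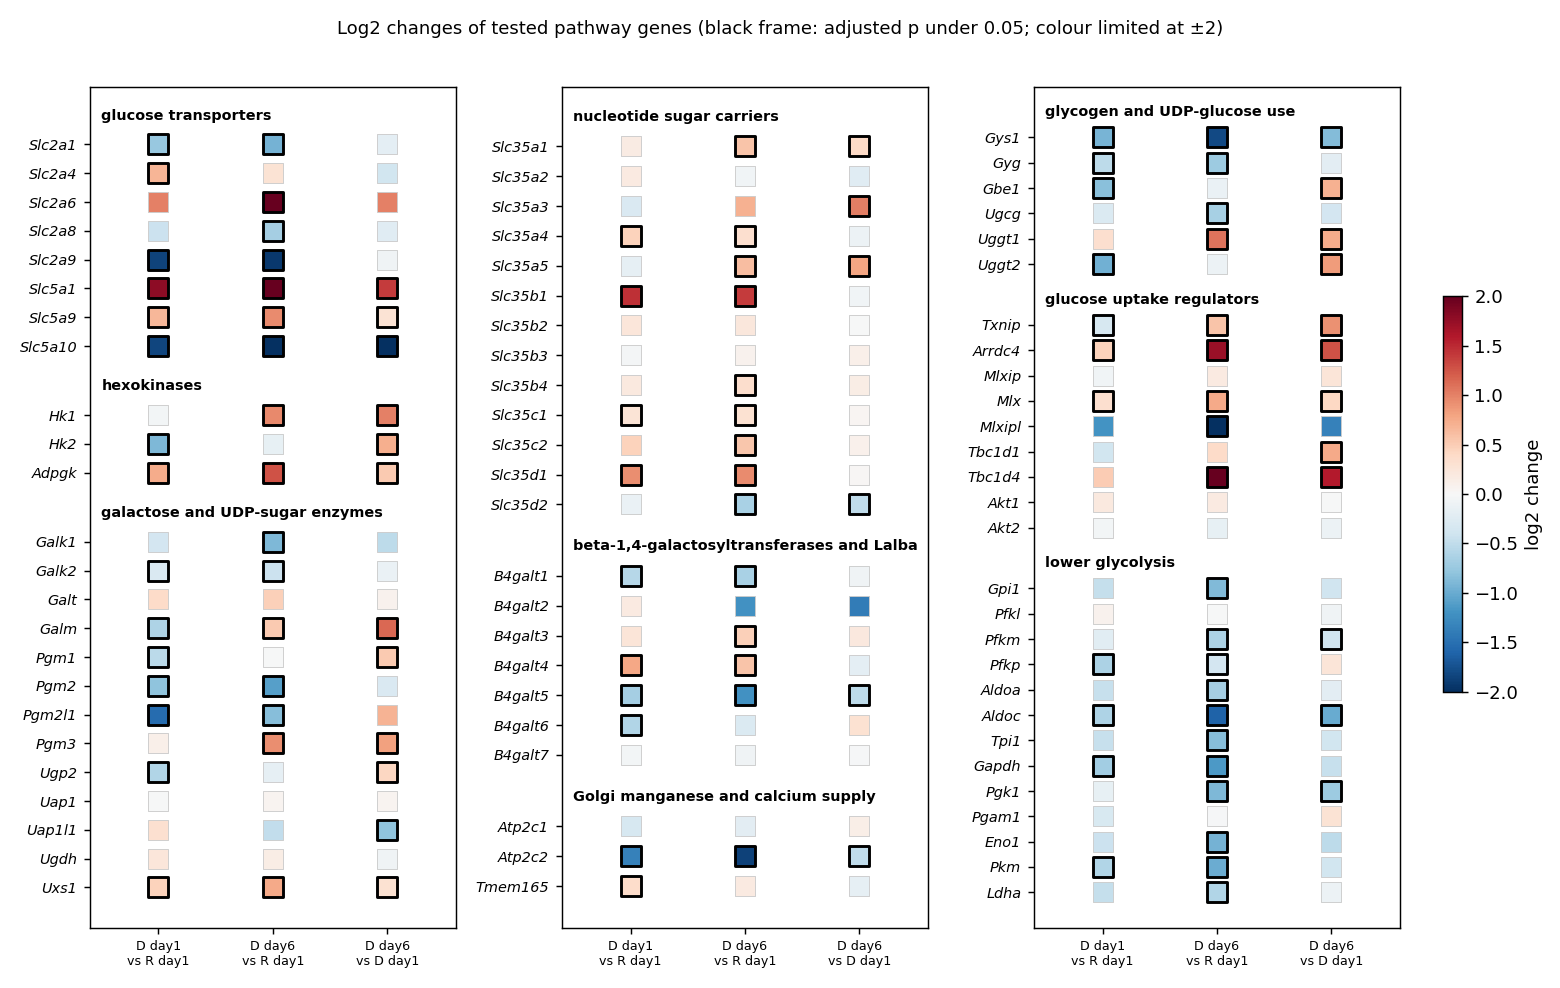
Fitted log2 changes (colour, red higher and blue lower, limited at 2 in either direction) of tested genes from 9 lists in D day1 against R day1, D day6 against R day1 and D day6 against D day1. A black frame marks an adjusted p under 0.05 in edgeR's test; in the lower glycolysis list 11 of 13 genes are framed and blue in D day6 against R day1.

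Over the 9 libraries, which share groups and so are not independent points, the levels of some of the 8 genes ran together. Pearson's r of log2 CPM was 0.936 between Hk2 and Ugp2, both lowest at D day1, 0.901 between Slc2a1 and Slc2a8, and 0.852 between Slc2a1 and B4galt1, while it was -0.739 between Galt and B4galt1. Of all tested genes, Id2 (r = 0.998) and Slc25a23 (0.997) were most like Hk1. The genes most like Slc2a1 were Lonp1 (0.988) and Mettl9 (0.987), and those most like Slc2a8 were Zfp954 (0.990) and Tcf25 (0.984). Pfkfb3 (0.982), an enzyme gene of glycolytic control, was among the genes most like Hk2, and Ugp2 was most like Spidr (0.982) and Fam76a (0.982). Galt was most like Prkcsh (0.995) and Paip2 (0.992), B4galt1 like 2210404O09Rik (0.995) and Qpct (0.993), and Slc35a2 like Gm3636 (0.951) and Rassf1 (0.937). The deviation of D day1 replicate 2 enters all of these values.

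The authors' deposited tables of DESeq2 results cover both comparisons with R day1. In the authors' deposited table for D day1, Slc2a1 (log2 change -0.75), Hk2 (-0.88), Ugp2 (-0.59) and B4galt1 (-0.54) had adjusted p-values of 0.00355, 9.79e-05, 6.71e-06 and 1.36e-06, and Slc2a8, Hk1, Galt and Slc35a2 had adjusted p-values of 0.255 to 0.860. The authors' deposited table for D day6 gave Hk1 a log2 change of 0.95 (adjusted p = 4.71e-61), and its adjusted p was also under 0.05 for Galt (log2 change 0.51, adjusted p = 7.01e-09) and Ugp2 (-0.17, adjusted p = 0.0163), which did not pass the edgeR test on 9 libraries. In the authors' deposited table for D day6, Slc2a1 (-0.95), Slc2a8 (-0.69) and B4galt1 (-0.64) were lower at adjusted p-values of 4.13e-18, 3.47e-09 and 2.14e-30, and Hk2 and Slc35a2 had 0.457 and 0.60.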

How the data were processed

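Polyadenylated RNA of HC11 cells was sequenced in 9 libraries with a directional kit, per the labels' protocols. Per the submitters' processing notes the build was mm10 and the tools included DESeq2 1.16.1, R 3.3.0, featureCounts, HTSeq 0.6.1, SAMtools 0.1.18, Bowtie2 2.0.2, TopHat2 2.0.6 and Trimmomatic 0.32. Per the file headers, the authors deposited a featureCounts table of whole-number counts per gene, not normalized, which gave every level and test here. Its strand setting and its treatment of reads with several matches are not given in the sources used here, so where genes overlap on opposite strands a read may stand under either. The authors' deposited DESeq2 tables hold mean and test score columns, the log2 change and its standard error, and the p-value before and after adjustment. They are quoted only by that name. Other deposited tables name columns by codes found in no label, and some columns of the count table belong to other samples: these 21 columns were not used here.

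With R 4.3.3, edgeR 4.0.16 removed low genes (filterByExpr), scaled libraries (TMM) and fitted its quasi-likelihood F test to all 9 libraries with the group as the only term. P-values were adjusted over the 13866 genes by Benjamini-Hochberg. The standard error is the log2 change over the square root of F. Levels are CPM as mean ± SD. The test was tested on simulated counts with D day1 against R day1 changed, where it called 59% of 2-fold and 12% of 1.5-fold changes among 13667 genes, with 3 false calls. Only 100 genes were changed at each size, where 30.6% of tested genes were called in the real comparison. No simulated library deviated with exon length as D day1 replicate 2 did, so these shares hold for that setting only. Alternatives were DESeq2 1.42.0, limma-voom (limma 3.58.1), RLE size factors, library totals, no low-count filter, a replicate block, only the 6 libraries compared, and each library left out.

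Each of the 8 genes was named in every comparison. Of the 9 pathway lists, up to 3 called genes with the largest change were named in each direction, besides Lalba, Galk1, Pgm1, Pgm2, Csn2 and Txnip, and the 2 genes most alike to each of the 8. The genes and lists were chosen with earlier results of these data known. Promoters are RefSeq windows of 250 bases. Protein sequences were not used here, and a few genes that the naming rule takes are not reported here.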

Additional observations from a re-analysis of the deposited data

Results flagged for a closer look

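The changes of 3 of the 8 genes against R day1 differed between 1 and 6 days of D medium in the edgeR contrast of D day6 with D day1. They are listed because that contrast called them. It called 36.6% of all tested genes either way and 17.1% higher, so a count of 3 is near the background. Hk1 differed by a log2 change of 1.01, Hk2 by 0.73 and Ugp2 by 0.43, each higher in D day6. Every D day6 library lay above every D day1 library for these 3 genes, as it did for 27.0% of all tested genes (53.8% did not overlap either way). The direction and the call held under all 16 alternatives for Hk1, Hk2 and Ugp2.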

How the results depend on the processing

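Of 384 values of the 8 genes under 16 alternatives, 373 kept their side of the threshold, 8 passed it newly and 3 no longer passed it. The direction of 0 called values turned, and 3 values that passed in neither fit changed sign, all in D day6 against D day1: Slc2a8 without D day1 replicate 2 (0.03) and Galt without D day1 replicate 1 or 3 (-0.06 each). With only the 6 libraries compared, 2 of the 8 genes rose in D day6 against R day1, against 1 in the fit on all libraries, and 1 fell in D day6 against D day1 with library totals, against 0. Over all genes, the 6 libraries alone gave 1304 higher in D day1 against R day1 (2136 with all libraries), 5232 higher in D day6 against R day1 (3375), and 1544 higher and 1779 lower in D day6 against D day1 (2367 and 2710). The cause was not tested. Leaving out each library in turn gave 1233 to 3745 genes higher and 1364 to 3688 lower in D day1 against R day1. It gave 2762 to 5336 higher in D day6 against R day1, 1615 to 4208 higher and 1790 to 3999 lower in D day6 against D day1, and 1 to 2 of the 8 genes higher in D day6 against R day1. The highest of each of these counts came without D day1 replicate 2. With library totals the median log2 change of all genes was -0.143 in D day6 against R day1 and -0.107 against D day1, where TMM gave -0.0035 and -0.035.

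Deviations of same-numbered libraries from their group means had r over 0.1 in 1 of 9 pairs, from -0.328 to 0.243. Between R day1 and D day1 they were -0.316, -0.328 and -0.219. D day1 replicate 2 weighs on these deviations, so this check cannot tell whether libraries of 1 number shared a batch. The numbers were used only to name samples, besides the fit with the replicate block. With the replicate block, 0 of the 8 genes rose and 4 fell, 1 rose and 3 fell, and 3 rose and 0 fell in the 3 comparisons. Over all genes the block gave 1666 higher and 1794 lower in D day1 against R day1, 3111 and 3404 in D day6 against R day1, and 1998 and 2216 in D day6 against D day1. Arms left with 2 libraries share the spread of the other groups. Depth limits Lalba and the low transporters to a few counts.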
